A study of Mus musculus with 36 samples.

Results

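The 10 genes studied here mark the fat-storing stellate cells and portal fibroblasts of the liver, and they were followed across 3 mouse models of cholestasis, the block or failure of bile flow. They were chosen by name for their roles, out of 29546 genes in the expression table: the contractile and cytoskeletal genes Acta2, Tagln and Des, the platelet-derived growth factor (PDGF) receptors Pdgfrb and Pdgfra, the matrix proteoglycans Dcn and Lum, the portal fibroblast surface gene Thy1, the stellate cell gene Reln and the ligand Tgfb1. Whole liver of C57BL/6 mice was measured in 36 libraries, 4 mice in each of 9 groups. Bile duct ligation (BDL7 and BDL28, sampled after 7 and 28 days) was set against sham surgery (SHAM). Cyclosporin A at 15 mg/kg, an immunosuppressant given in olive oil by gavage (CsA7 and CsA28), was set against olive oil alone (VEHICLE). A diet with 0.1% 3,5-diethoxycarbonyl-1,4-dihydrocollidine, a porphyrin-forming bile duct toxin (DDC7 and DDC28), was set against control diet (CTLD). None of the groups carried an engineered allele. The labels call day 7 acute and day 28 chronic, the control groups carry no day and each served both days, and age and sex were not given in the sources used here.

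Hepatic stellate cells lie between hepatocytes and the sinusoids, store vitamin A and, in injured liver, turn into myofibroblasts that carry contractile filaments and lay down collagen. Portal fibroblasts surround the bile ducts and are a further source of myofibroblasts in cholestatic injury. PDGF drives the proliferation of these cells through its receptors, and TGF-beta, secreted in a latent form and freed by integrins and proteases, signals through SMAD proteins to raise contractile and matrix genes.

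The 250 bases before the transcription start, from the RefSeq promoter set of build GRCm38.p6, are shown for Acta2, Des and Reln, because the results turn on their unlike courses: Acta2 rose in ligation on both days, Des stayed near 0 and Reln fell in ligation at day 28. Promoters of 5 of the 10 genes were in that set, the other 2 being Pdgfra and Tgfb1. The windows are Acta2 at chr19:34255374-34255623 (minus strand), Des at chr1:75360042-75360291 (plus strand) and Reln at chr5:22344706-22344955 (minus strand), each written 5′ to 3′. Capitals mark, in Acta2, the CArG box, the element of serum response factor, with at most 1 letter off its pattern, and in Des and Reln the Sp1-type motif GGGCGG on either strand.
Acta2: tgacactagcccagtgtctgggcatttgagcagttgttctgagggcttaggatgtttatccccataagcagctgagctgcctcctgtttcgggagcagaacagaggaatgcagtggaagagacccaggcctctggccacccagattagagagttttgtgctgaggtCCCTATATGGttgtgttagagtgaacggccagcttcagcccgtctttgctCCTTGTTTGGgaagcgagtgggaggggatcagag
Des: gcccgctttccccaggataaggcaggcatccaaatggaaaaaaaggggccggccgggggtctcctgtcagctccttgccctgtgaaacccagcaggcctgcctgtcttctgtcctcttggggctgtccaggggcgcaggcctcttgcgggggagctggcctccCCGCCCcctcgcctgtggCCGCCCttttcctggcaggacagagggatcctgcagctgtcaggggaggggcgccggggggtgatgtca
Reln: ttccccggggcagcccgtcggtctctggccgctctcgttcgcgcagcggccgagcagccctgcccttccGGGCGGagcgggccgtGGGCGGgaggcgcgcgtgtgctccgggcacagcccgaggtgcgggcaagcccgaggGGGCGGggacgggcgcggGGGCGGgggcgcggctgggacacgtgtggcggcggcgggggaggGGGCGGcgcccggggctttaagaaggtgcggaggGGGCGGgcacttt

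The Acta2 window held 2 near-CArG matches, the letters ccctatatgg and ccttgtttgg, and none with the full pattern. The near form was searched after the full form had given no match in any of the 5 windows. Among all 32851 RefSeq windows of the same length, 1.47% held a full CArG box and 8.59% the near form, both strands searched. GGGCGG, held by 32.7% of all windows, occurred 6 times in Reln, 5 times in Tgfb1, 2 times in Des and 0 times in Acta2 and Pdgfra. The SMAD-type motif CAGAC, held by 42.2% of all windows, occurred once each in Acta2 and Pdgfra. These matches describe the letters of the windows only.

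Each library held 2081093 to 3770267 reads, and values are given as normalized counts, in which a read is worth 0.708 to 1.62 depending on the library. Of the 10 genes, 7 reached a normalized count of 10 in at least 4 libraries and entered the limma test over 12596 genes. Des, Thy1 and Tgfb1 did not, at 0 to 7, 0 to 12 and 0 to 17 reads per library, and are given from a limma fit over all 29546 genes. Hepatocyte markers summed to 36540 to 87050 in every library, as in liver tissue. One library stood apart from its group before any test: BDL28 replicate 1 read above the other 3 BDL28 libraries for Pdgfrb, Lum, Reln, Pdgfra and Dcn. In that library the 7 cholangiocyte markers summed to 2886 against 983.1 to 1284 in the other 3, the 7 macrophage markers to 1736 against 607.3 to 937.8, and the 13 quiescent stellate markers to 1579 against 473.6 to 689.2. Results at 28 days of ligation are therefore given with and without it where so stated, and otherwise with it. The library was picked on values of the genes under test, so p-values from fits without it are descriptive only. The part of these marker differences in the results was not tested, and in whole liver a change in the number of cells of a type cannot be told apart from a change in RNA per cell.

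Most of the 7 tested genes rose in acute ligation and in chronic DDC feeding, and cyclosporin moved none of them by the test. With a call set at a limma adjusted p under 0.05, 5 of the 7 tested genes rose in BDL7 (Acta2, Tagln, Pdgfrb, Pdgfra and Lum), where 20.2% of all genes were called higher, and the median log2 change of the 7 was 1.44. Tagln reached 10 in only 6 libraries, all BDL7 libraries among them. It thus entered the test through the group where it was highest, and the filter favoured its calls in BDL7 and from BDL7 to BDL28. In BDL28 2 rose (Acta2 and Pdgfra, with 24.1% of all genes called higher) and 1 fell (Reln, with 22.7% called lower), and the median was 0.755. In DDC7 2 rose (Acta2 and Lum, with 24.7% called higher, median 0.766) and in DDC28 5 rose (Pdgfrb, Pdgfra, Dcn, Lum and Reln, with 27.9% called higher, median 1.12). The medians over all genes in these comparisons were 0.0114, 0.0336, 0.0402 and 0.0372. Scaling the libraries to equal total counts put those all-gene medians at 0.289 to 0.386, so that changes here are relative to the bulk of genes, and the share of called genes that were higher went from 52.3% to 84.2% in BDL7, 51.5% to 74.3% in BDL28, 52.8% to 82.2% in DDC7 and 53.0% to 78.5% in DDC28.

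Cyclosporin changed none of the 7 at a limma adjusted p under 0.05. In CsA7 0 were called where 4.03% of all genes were, with 1 at an unadjusted p under 0.05 (Tagln) and 0 by edgeR and by DESeq2. In CsA28 0 were called where 0.0238% of all genes were, with 0 at an unadjusted p under 0.05, 0 by edgeR and 0 by DESeq2. From CsA7 to CsA28 0 were called where 2.45% of all genes were, and again 0 at an unadjusted p, by edgeR and by DESeq2. The 3 control groups did not separate on these genes by an F test in limma, with 0 called where 19.4% of all genes were, and 0 at an unadjusted p, by edgeR and by DESeq2.

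Acta2, which encodes alpha smooth muscle actin and is the usual label of the myofibroblast, rose most in acute ligation. Its normalized counts were 64.3, 19.3, 84.8 and 68.7 in BDL7 against 2.75, 7.45, 4.21 and 3.56 in SHAM. All 4 BDL7 libraries lay above all 4 SHAM libraries, the lowest being replicate 2. On the log2(value + 1) scale, used for every difference here, the difference was 3.34 ± 0.51 (SE), or 10.1-fold, with a limma adjusted p of 2.97e-06. In BDL28 the values were 27.6, 14.7, 13 and 10.7, still all above SHAM, at 1.65 ± 0.51 over SHAM (limma adjusted p = 0.00779) and below BDL7 by a log2 difference of -1.69 ± 0.51 (limma adjusted p = 0.0111). Without BDL28 replicate 1 the rise over SHAM was 1.39 (limma adjusted p = 0.0362).

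In the DDC diet Acta2 read 27.6, 40.8, 20.9 and 33.3 at day 7 and 40.2, 14.2, 19.0 and 16.5 at day 28, against 1.01, 16.2, 19.6 and 12 in CTLD. The DDC7 libraries lay above all controls, whereas the DDC28 libraries overlapped them. The day 7 difference was 1.65 ± 0.51 (limma adjusted p = 0.00796), but it rested on CTLD replicate 1, the library at 1.01: without it the difference was 0.89 and no longer passed, nor did the difference pass in a fit of DDC7 and CTLD alone (limma adjusted p = 0.0908). At day 28 it was 1.14 ± 0.51 and did not pass (limma adjusted p = 0.0578). Under cyclosporin Acta2 overlapped its controls, at 11.1, 5.64, 6.90 and 3.05 in CsA7 and 19.4, 8.59, 7.61 and 10.04 in CsA28 against 4.63 to 9.57 in VEHICLE. The differences of -0.11 ± 0.51 in CsA7 (limma adjusted p = 0.951) and 0.61 ± 0.51 in CsA28 (limma adjusted p = 0.766) did not pass.

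Tagln, which encodes the actin-binding protein transgelin of contractile cells, read 18.4, 10.2, 14.0 and 24.4 in BDL7 against 2.75, 2.48, 2.10 and 1.19 in SHAM. The groups did not overlap, and the rise was 2.47 ± 0.48 (limma adjusted p = 1.00e-04). By day 28 the ligated livers read 8.85, 1.84, 8.36 and 6.43, all below BDL7. Over SHAM this was 1.11 ± 0.48, which did not pass (limma adjusted p = 0.0566). It passed by edgeR (adjusted p = 0.0467), with total-count scaling (limma adjusted p = 0.0235) and with a pseudocount of 5 (limma adjusted p = 0.0472). Without BDL28 replicate 1 the difference from SHAM was 0.92 ± 0.52 (limma adjusted p = 0.149). The log2 difference between days was -1.35 ± 0.48 (limma adjusted p = 0.0312). This call was lost without BDL7 replicate 1, BDL7 replicate 4 or BDL28 replicate 2, and with no filter (limma adjusted p = 0.0503). In CsA7 all 4 libraries, at 3.05 to 6.90, lay above the 4 VEHICLE libraries, at 0.926 to 2.68, yet the difference of 1.11 ± 0.48 did not pass (limma adjusted p = 0.205). Against CTLD it was 0.74 in DDC7 and 0.05 in DDC28, neither passing.

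Des, which encodes desmin, the intermediate filament used to mark rodent stellate cells, was at the limit of detection. It had 0 reads in 7 of the 36 libraries and at most 7 in any. BDL28 read 1.97, 0, 0 and 0 and SHAM 2.75, 3.72, 0 and 1.19. The difference of -0.93 ± 0.54 did not pass (limma adjusted p = 0.249). Whether a change of this size could be detected at this depth was not tested.

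**Figure D1:**
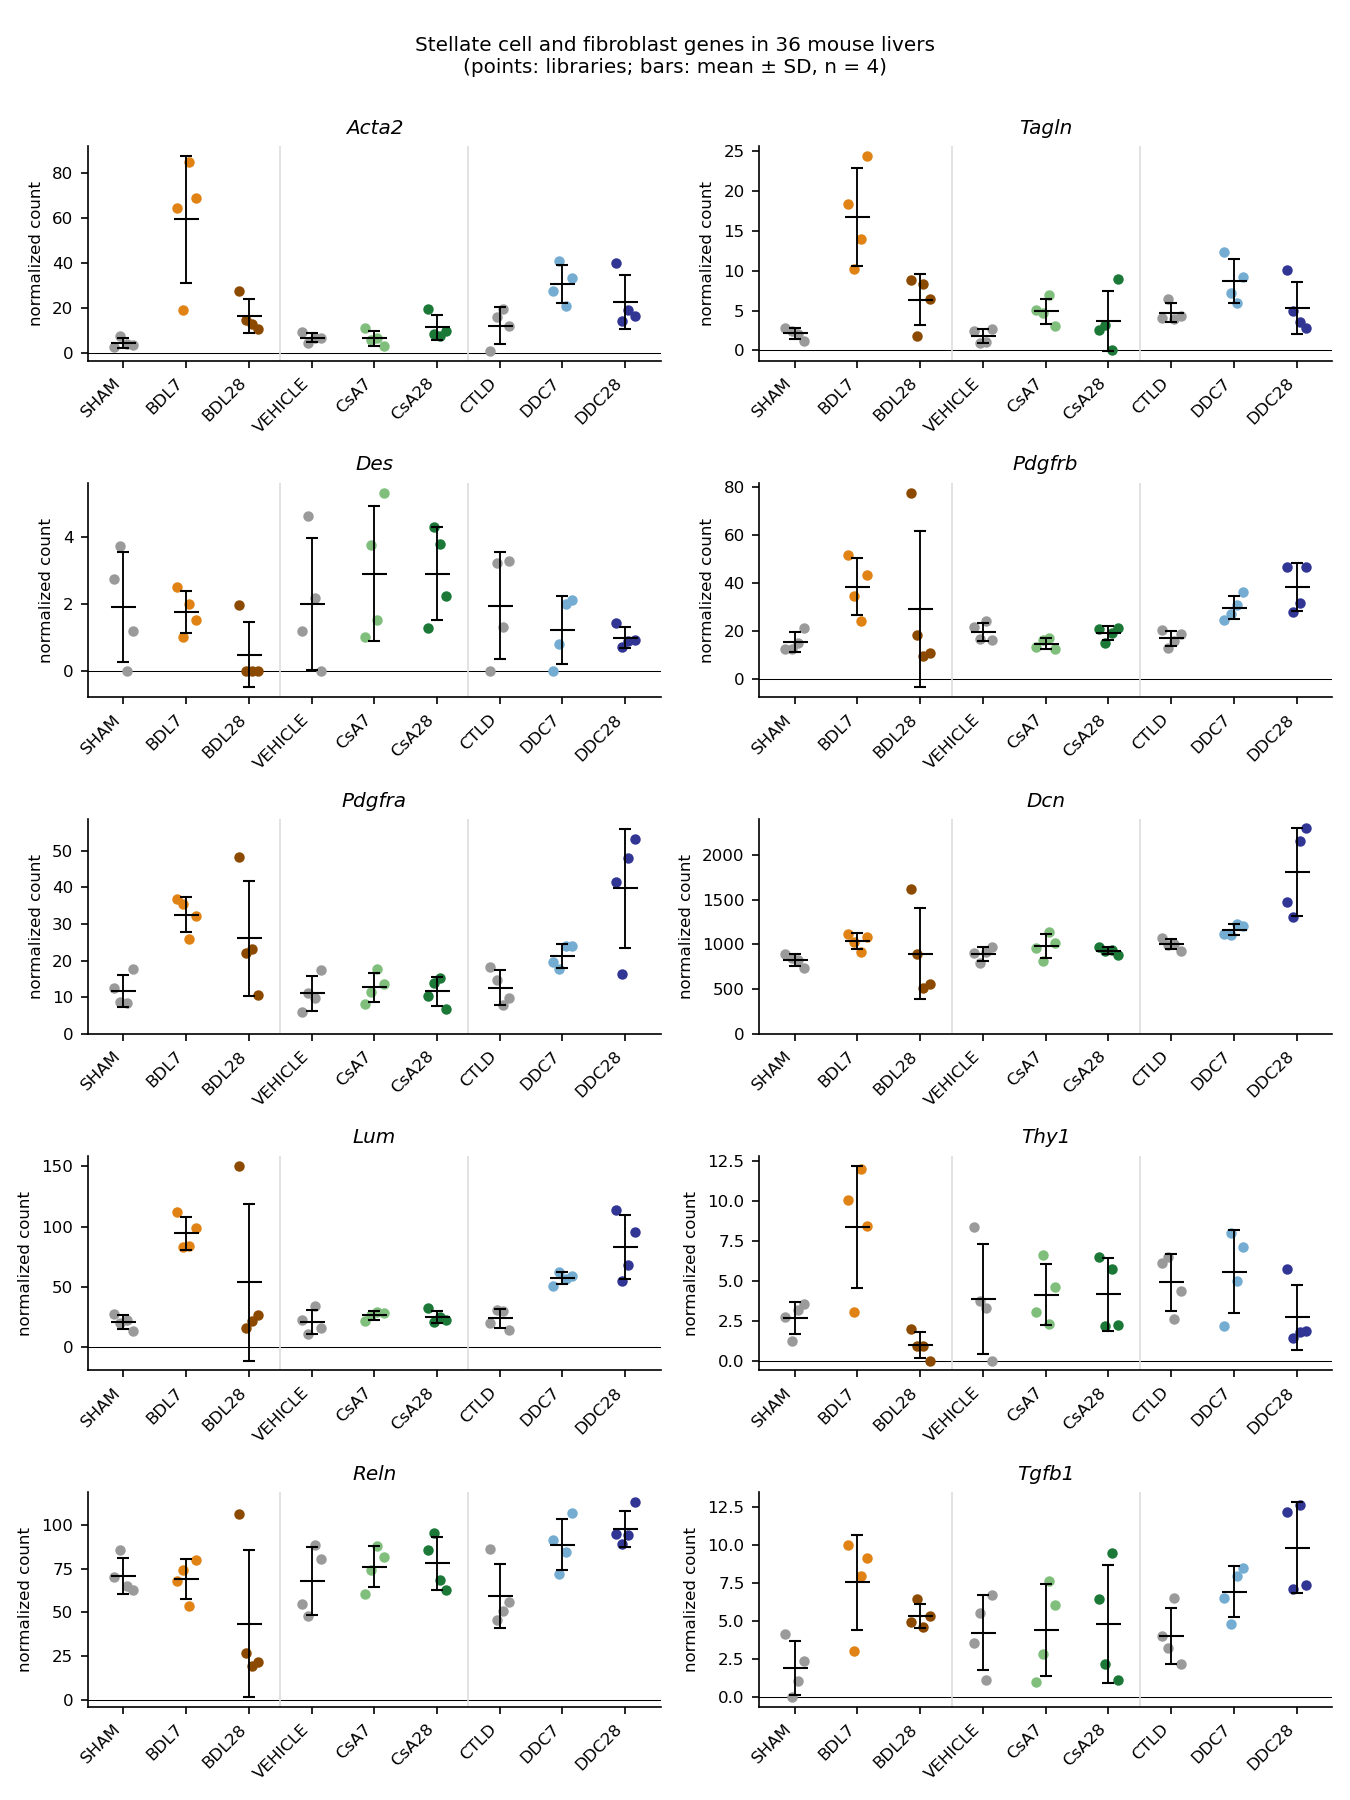
Normalized counts of the 10 genes, 1 panel per gene, in each library (points) of the 9 groups, with the mean and SD of 4 libraries; vertical scales differ between panels. Acta2 and Tagln peak in BDL7, Pdgfra and Dcn reach their highest libraries in DDC28, and BDL28 holds 1 library far above the other 3 for Pdgfrb, Lum and Reln.

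Of the other contractile and smooth muscle genes, 8 of 13 were tested. In BDL7 6 rose and 0 fell, with a median log2 change of 1.51 against 0.0114 over all genes. In BDL28 3 rose and 0 fell (median 0.303, and again 3 and 0 with a median of 0.0618 without replicate 1, against 0.0301 over all genes), in DDC7 3 and 0 (median 0.0475), and in DDC28 3 rose and 1 fell (median -0.173). Of all genes 20.2%, 24.1%, 24.7% and 27.9% were called higher in BDL7, BDL28, DDC7 and DDC28. The counts of 3 of 8 were not far above those shares. The genes that rose in all 4 of these comparisons were Tpm1, a tropomyosin (1.64, 1.13, 1.62 and 1.69 in BDL7, BDL28, DDC7 and DDC28), Vim, the intermediate filament vimentin (2.48, 1.56, 1.20 and 1.71), and Flna, the actin crosslinker filamin A (1.69, 1.40, 1.41 and 1.99). None of these 3 defines smooth muscle. The 5 smooth muscle defining genes together read 6.10 to 23.7 in BDL7 and 2.10 to 6.88 in SHAM, with Cnn1 and Actg2 at 0 in all 4 SHAM libraries, and none of the 5 passed the filter. Their part in the Acta2 result was not tested.

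Pdgfrb, the PDGF receptor that marks stellate cells and pericytes, read 51.8, 34.6, 23.9 and 43.5 in BDL7 against 12.4, 12.4, 14.7 and 21.4 in SHAM. The BDL7 libraries were all higher, by 1.26 ± 0.36 (limma adjusted p = 0.00468). In BDL28 replicate 1 read 77.7 and the others 18.4, 9.29 and 10.7, so that 3 of 4 lay within or below the SHAM range. The difference was 0.39 ± 0.36 (limma adjusted p = 0.388) with that library and -0.26 ± 0.26 (limma adjusted p = 0.440) without it.

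In the DDC diet Pdgfrb read 24.7, 27.2, 30.9 and 36.1 at day 7 and 46.6, 27.8, 31.7 and 46.8 at day 28, against 20.3, 12.95, 15.7 and 18.6 in CTLD. Both days lay above all 4 controls, but only day 28 passed the test, at 1.12 ± 0.36 (limma adjusted p = 0.00840), day 7 standing at 0.79 ± 0.36 (limma adjusted p = 0.0672). The change from day 7 to day 28 of the diet was 0.33 ± 0.36 and did not pass (limma adjusted p = 0.677).

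Pdgfra, the receptor that in liver marks fibroblasts and stellate cells, read 36.8, 35.6, 25.9 and 32.1 in BDL7 and 12.4, 8.69, 8.42 and 17.8 in SHAM. These did not overlap, and the rise was 1.44 ± 0.36 (limma adjusted p = 0.00171). BDL28 read 48.2, 22.1, 23.2 and 10.7 and overlapped SHAM, at 0.95 ± 0.36 (limma adjusted p = 0.0296); leaving out any of SHAM replicate 2, SHAM replicate 3, BDL28 replicate 1 or BDL28 replicate 3 ended this call, and without BDL28 replicate 1 it stood at 0.60 (limma adjusted p = 0.176). It also ended under quantile normalization (limma adjusted p = 0.0872) and in a fit of the 2 groups alone (limma adjusted p = 0.0832). In DDC28 Pdgfra read 41.6, 16.4, 47.9 and 53.3 against 18.3, 14.6, 7.83 and 9.82 in CTLD, with only replicate 2 inside the control range. That rise was 1.53 ± 0.36 (limma adjusted p = 5.98e-04), after 0.77 ± 0.36 at day 7 (limma adjusted p = 0.0805).

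Of the 4 genes for the ligands of these receptors 3 were tested, and all 3 rose in BDL7, BDL28, DDC7 and DDC28, in BDL28 also without replicate 1. Of all genes 20.2%, 24.1%, 24.7% and 27.9% were called higher in these comparisons. Pdgfb, the ligand of the beta receptor, read 34.3, 19.3, 44.9 and 42.0 in BDL7 and 4.74 to 9.63 in SHAM, a log2 difference of 2.07 ± 0.37, and its difference in DDC28 was 2.45 ± 0.37. Pdgfb lay below the filter level in every SHAM, VEHICLE and CTLD library, so the filter favoured its rises. Pdgfa rose by 2.06 ± 0.23 in BDL7 and 1.08 ± 0.23 in DDC28. Pdgfc, whose product binds the alpha receptor, rose by 0.95 ± 0.18 in BDL7 and 1.42 ± 0.18 in DDC28, and fell in CsA7, at 15.0 to 20.2 against 23.0 to 37.6 in VEHICLE (-0.71 ± 0.18, limma adjusted p = 0.0174). Macrophage markers, whose cells also make PDGF, summed to 1735 to 2377 in BDL7 and 595.3 to 807.8 in SHAM, and to 1291 to 1880 in DDC28 and 562.4 to 690.7 in CTLD; their part was not tested.

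**Figure D2:**
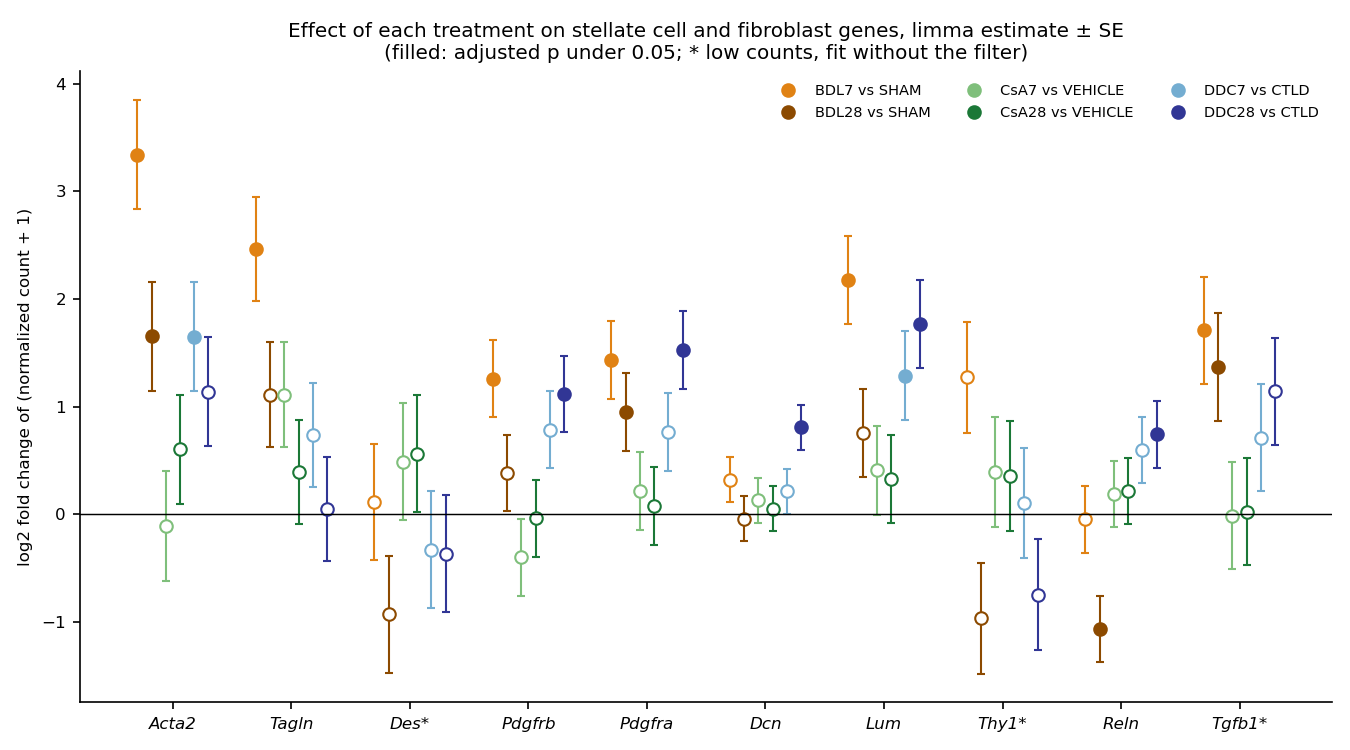
Log2 fold change (± SE) of the 10 genes against their own control in the 6 treated groups, with filled points for a limma adjusted p under 0.05; starred genes come from the fit with no filter on low counts. The rises of Acta2, Tagln and Lum are largest in BDL7, Dcn passes only in DDC28, Reln passes downward only in BDL28, and no gene passes in the cyclosporin groups.

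Lum, which encodes lumican, a small leucine-rich proteoglycan that binds collagen fibrils, rose 4.52-fold in acute ligation. It read 112, 83.4, 83.8 and 98.5 in BDL7 against 27.5, 19.9, 22.1 and 13.04 in SHAM, with every ligated library above every sham library (log2 difference 2.18 ± 0.41, limma adjusted p = 8.62e-05). In BDL28 replicate 1 read 150.5, and the others, at 15.6, 21.4 and 26.8, lay within the SHAM range. The log2 difference from day 7 was -1.42 ± 0.41 (limma adjusted p = 0.00883); it did not pass without BDL28 replicate 2 and was -2.12 ± 0.28 without BDL28 replicate 1. On the recovered reads this difference did not pass (edgeR adjusted p = 0.108, DESeq2 adjusted p = 0.122), while Lum in BDL28 over SHAM, at 0.76 ± 0.41 by limma (adjusted p = 0.132), did (edgeR adjusted p = 0.0254, DESeq2 adjusted p = 0.00630). That rise was, with BDL28 replicate 1 left out, 0.06 ± 0.28 (limma adjusted p = 0.893).

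In the DDC diet Lum stayed above its controls on both days. It read 50.8, 62.3, 56.8 and 58.8 in DDC7 and 114, 54.8, 67.8 and 95.5 in DDC28, all above the 14.2 to 30.8 of CTLD. The rises were 1.29 ± 0.41 (limma adjusted p = 0.0107) and 1.77 ± 0.41 (limma adjusted p = 5.82e-04).

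Dcn, which encodes decorin, a collagen-binding proteoglycan that also binds TGF-beta, had 524 reads or more in every library. It read 1475, 1301, 2159 and 2298 in DDC28 against 1076, 997.3, 1007 and 929.6 in CTLD, with no overlap (0.81 ± 0.21, or 1.75-fold, limma adjusted p = 0.00167). DDC7, at 1103 to 1224, also lay above all CTLD libraries, but its 0.21 ± 0.21 did not pass (limma adjusted p = 0.420). BDL7, at 912.3 to 1121, lay above all SHAM libraries, at 735.2 to 890.3, and its 0.32 ± 0.21 did not pass either (limma adjusted p = 0.232), though it did in a fit of the 2 groups alone (limma adjusted p = 0.00380), under quantile normalization (limma adjusted p = 0.0288) and with libraries scaled to equal totals (limma adjusted p = 0.0189). BDL28 read 1617, 896.7, 509.8 and 561.6, on both sides of the SHAM range, with a difference of -0.04 ± 0.21 (limma adjusted p = 0.901). Without replicate 1 it was below SHAM (difference -0.37 ± 0.15, limma adjusted p = 0.0443), where 22.1% of all genes were called lower.

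Thy1, a surface protein of portal fibroblasts and of T cells, was scarce. It read 10.03, 3.05, 11.96 and 8.40 in BDL7, 1.97, 0.919, 0.929 and 0 in BDL28 and 2.75, 1.24, 3.16 and 3.56 in SHAM. The fit with no filter gave 1.27 ± 0.51 for BDL7 over SHAM, which did not pass (limma adjusted p = 0.0878). Every BDL28 library lay below every BDL7 library, with a log2 difference of -2.24 ± 0.51 (limma adjusted p = 0.00183) that passed with each of the 8 libraries left out in turn; 6.64% of the 29546 genes were called lower in that fit. T cell markers summed to 4.58 to 11.2 in BDL7, 2.79 to 11.8 in BDL28 and 12.4 to 20.0 in SHAM, so they overlapped between the ligated groups and lay below SHAM in both.

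Some genes that belong to portal fibroblasts and elastic fibers were called higher. Of 16 such genes 7 passed the filter. Of these, 5 rose in BDL7 and 4 in each of BDL28, DDC7 and DDC28, and none fell. The medians were 1.62, 1.41, 1.47 and 1.81. Of all genes 20.2%, 24.1%, 24.7% and 27.9% were called higher in these comparisons. Eln, which encodes elastin, read 29.2, 25.4, 50.9 and 87.0 in BDL7 against 0 to 7.45 in SHAM, and rose by 3.49 ± 0.51 there and 2.41 ± 0.51 in DDC7. Fbn1, the microfibril protein fibrillin 1, rose by 2.85 ± 0.53 and 2.39 ± 0.53. Entpd2, an ectonucleotidase of portal fibroblasts, rose by 1.62 ± 0.35 in BDL7 and 2.67 ± 0.35 in DDC28. Cd34, a gene of fibroblasts and of endothelium, rose by 2.35 ± 0.39 in BDL7. Eln, Fbn1, Entpd2 and Cd34 lay below the filter level in nearly every SHAM, VEHICLE and CTLD library. They entered the test through the ligated and DDC-fed livers, so the filter favoured their rises. The counts and medians of the list are therefore not a test of the list as a whole. Without BDL28 replicate 1, 4 genes rose and 1 fell in BDL28 (median 0.973). Of 4 tested proteoglycan genes beside Dcn and Lum, 1 rose in BDL7 (Prelp, 0.97 ± 0.19), 1 in BDL28, 2 in DDC7 and 1 in DDC28, and none fell. The counts of 1 of 4 were near the shares of all genes given above. With BDL28 replicate 1 left out, 1 rose and 2 fell in BDL28 (median -0.626 against -0.159 with it): Bgn, which encodes biglycan, at -0.63 ± 0.19 and Prelp at -0.62 ± 0.16. In that fit 22.8% of all genes were called higher and 22.1% lower.

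Reln, which encodes the secreted glycoprotein reelin, made in adult liver by stellate cells and also by lymphatic endothelium, was the only one of the 7 tested genes called lower than its controls with all libraries in the fit. It read 67.7, 74.3, 53.8 and 80.1 in BDL7 and 70.2, 85.6, 65.2 and 62.9 in SHAM, a difference of -0.05 ± 0.31 (limma adjusted p = 0.929). In BDL28 it read 26.6, 19.5 and 21.4 in replicates 2 to 4, below every other library of the study, and 106.3 in replicate 1, above every SHAM library. The log2 difference from SHAM was -1.06 ± 0.31 (limma adjusted p = 0.00530) with all 4 libraries and -1.61 ± 0.20 (limma adjusted p = 4.60e-08) without replicate 1, and from BDL7 it was -1.02 ± 0.31 (limma adjusted p = 0.0122), lost without BDL28 replicate 2, 3 or 4 and on the recovered reads (edgeR adjusted p = 0.106, DESeq2 adjusted p = 0.0952). It passed limma with each of the 8 libraries left out in turn, but edgeR on the recovered reads gave an adjusted p of 0.0708, DESeq2 0.0616 and limma on BDL28 and SHAM alone 0.103.

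In DDC28 Reln moved the other way, at 94.6, 89.0, 94.1 and 113 against 86.2, 45.3, 50.9 and 55.7 in CTLD. The groups did not overlap, and the rise was 0.74 ± 0.31 (limma adjusted p = 0.0431), a call lost with 7 of the 8 libraries left out in turn and by edgeR (adjusted p = 0.0739). DDC7, at 71.9 to 107, was not called (0.60 ± 0.31, limma adjusted p = 0.111). Of 5 tested lymphatic endothelial markers 2 rose in BDL28, with and without replicate 1: Pdpn, at 21.1 to 29.5 against 0 to 2.37 in SHAM, and Mmrn1, at 4.29 to 8.36 against 0 to 6.31. Of all genes 24.1% were called higher with replicate 1 and 22.8% without it. Pdpn lay below the filter level in every SHAM library. The list's sum, 1010 to 1484 in BDL28 and 985.4 to 1419 in SHAM, was mostly Prox1, which hepatocytes also express, at 890.3 to 1370 and 913.1 to 1339. In DDC28 1 marker rose and 1 fell, where 27.9% of all genes were called higher and 24.7% lower. The part of lymphatic cells in the Reln result was not tested.

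Other genes of quiescent stellate cells split in the same livers. Of 13 genes 12 were tested. In BDL28 1 rose and 6 fell (median -0.907 against 0.0336 over all genes), where 22.7% of all genes were called lower. Without replicate 1, 1 rose and 7 fell (median -1.29), where 22.1% of all genes were called lower. Lrat, the enzyme that stores retinol as its ester, was at -1.69 with replicate 1 and -2.44 without it, Ngfr, a nerve growth factor receptor, at -1.95 and -2.82, and Colec11, a collectin, at -1.75 and -2.34; these 3 were chosen after their values were seen. Ecm1, a matrix protein that holds TGF-beta latent, fell in BDL28 (difference -1.35 ± 0.19), and its differences were -0.91 ± 0.19 in BDL7 and -1.08 ± 0.19 in DDC28, each called. In BDL7 2 of the 12 rose and 3 fell, in DDC7 2 and 3, and in DDC28 3 rose and 2 fell. Of all genes 20.2%, 24.7% and 27.9% were called higher in these and 18.5%, 22.1% and 24.7% lower. The list's counts were near those shares. Hgf, hepatocyte growth factor, was among those that rose, by 1.19 ± 0.46 in BDL7, 1.78 ± 0.46 in DDC7 and 1.89 ± 0.46 in DDC28. Angptl6 fell in all 4 comparisons (-1.58, -1.72, -0.89 and -0.80 in BDL7, BDL28, DDC7 and DDC28), and Vipr1 in BDL7 and BDL28 (-1.59 and -1.77). Hepatocyte markers summed to 36540 to 45890 in BDL7 and 58280 to 65270 in SHAM. Endothelial markers summed to 362.2 to 608.0 in BDL28 and 820.6 to 908.5 in SHAM, and the part of either was not tested.

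Of the 3 genes that receive or relay reelin, 1 could be tested. Vldlr, one of its receptors, lay below the filter level in every SHAM, VEHICLE and CTLD library, so the filter favoured the rises given here. In BDL28 Vldlr read 18.7, 12.9, 14.9 and 12.9 against 1.19 to 5.26 in SHAM (2.14 ± 0.51, limma adjusted p = 7.78e-04). Without BDL28 replicate 1 the difference was 2.03 ± 0.56. It was also higher in all 4 CsA7 libraries, at 11.5 to 17.5 against 0 to 9.39 in VEHICLE (2.10 ± 0.51, limma adjusted p = 0.0136), and in DDC28 (1.28 ± 0.51, limma adjusted p = 0.0347).

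**Figure D3:**
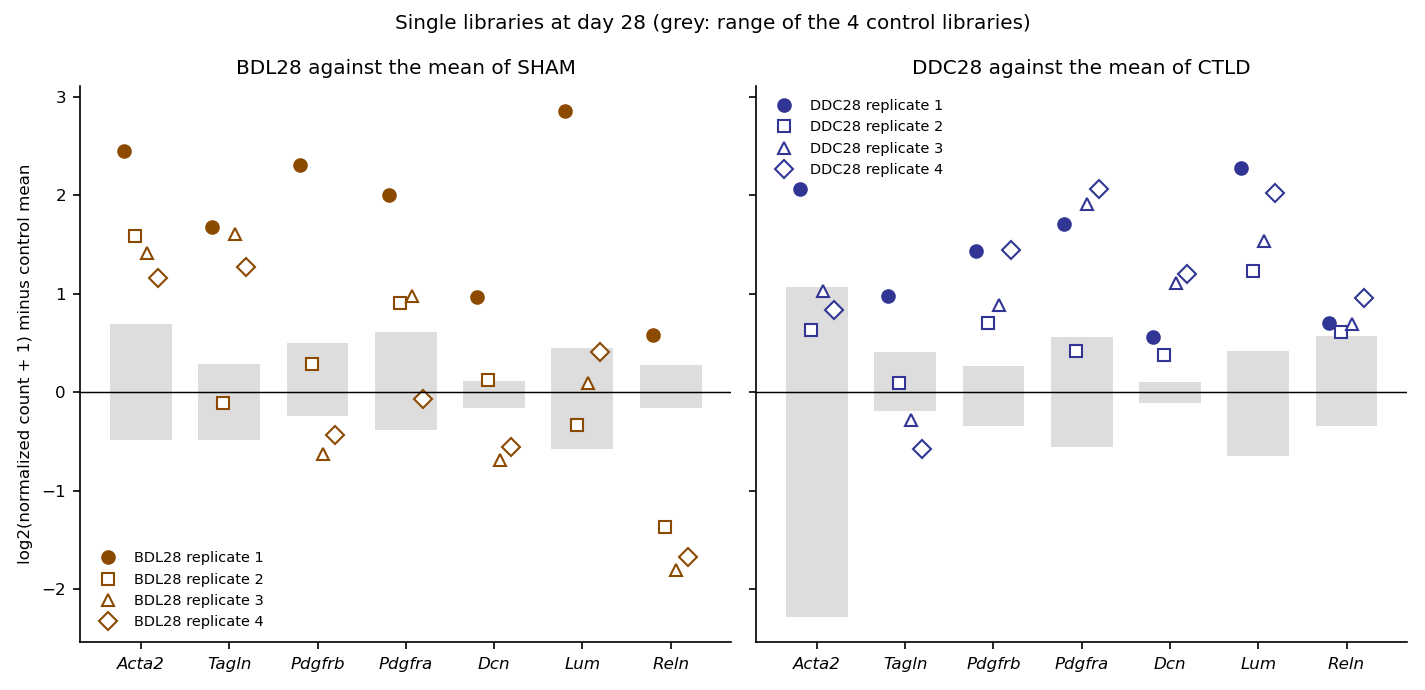
Each library's log2(value + 1) minus the mean of its control group at day 28, for the 7 tested genes, in ligated (BDL28) and DDC-fed (DDC28) mice by replicate, with the control range in grey. BDL28 replicate 1 lies at or above the other ligated libraries for every gene shown, while Reln in BDL28 replicates 2 to 4 lies below its control range and in DDC28 above it.

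Tgfb1, the TGF-beta ligand long tied to stellate cell activation, read 10.03, 3.05, 7.98 and 9.16 in BDL7 against 4.13, 0, 1.05 and 2.37 in SHAM. Replicate 2 of BDL7 lay inside the sham range and the other 3 above it. The fit with no filter gave 1.71 ± 0.50 (limma adjusted p = 0.0110, with 9.53% of 29546 genes called higher); the call was lost without SHAM replicate 2, the library at 0 (limma adjusted p = 0.0887). BDL28 read 4.92, 6.43, 4.64 and 5.36, all above SHAM, at 1.37 ± 0.50 (limma adjusted p = 0.0424, with 11.9% called higher), but passed with only 2 of the 8 libraries left out in turn. DDC28 read 12.2, 7.12, 12.7 and 7.35, all above the 2.18 to 6.52 of CTLD, and did not pass (1.14 ± 0.50, limma adjusted p = 0.0977). Platelet markers, whose cells store TGF-beta, summed to 36.6 to 50.9 in BDL7 and 57.6 to 70.7 in BDL28 against 13.7 to 24.8 in SHAM; their part and that of macrophages was not tested.

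Tgfb2, a further TGF-beta isoform, rose in both bile duct models on both days. It read 61.8, 38.7, 53.8 and 61.8 in BDL7 and 8.42 to 11.2 in SHAM, and 113, 103, 60.6 and 76.2 in DDC28 against 2.18 to 11.3 in CTLD. Its log2 changes were 2.35 ± 0.34, 2.98 ± 0.34, 1.71 ± 0.34 and 3.37 ± 0.34 in BDL7, BDL28, DDC7 and DDC28, with no overlap in any of the 4. Without BDL28 replicate 1 the BDL28 change was 2.68 ± 0.35. Tgfb3 did not pass the filter. Bile duct epithelium also makes Tgfb2, and the 7 cholangiocyte markers summed to 1862 to 3083 in BDL7, 983.1 to 2886 in BDL28, 1276 to 1753 in DDC7 and 1263 to 2393 in DDC28, against 304.8 to 494.0 in SHAM and 312.1 to 417.6 in CTLD. Their part in this and in the other rises was not tested.

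Genes that hold TGF-beta latent or free it moved both ways. Of 10 tested, 6 rose and 2 fell in BDL7, 5 and 1 in BDL28, 4 and 0 in DDC7 and 6 and 1 in DDC28. Of all genes 20.2%, 24.1%, 24.7% and 27.9% were called higher in these and 18.5%, 22.7%, 22.1% and 24.7% lower. Itgb6, the epithelial integrin subunit that frees TGF-beta, rose by 2.23 ± 0.52 in BDL7 and 3.22 ± 0.52 in DDC28, and Ltbp3, a latent TGF-beta binding protein, by 2.51 ± 0.49 and 2.06 ± 0.49. Itgb6 and Ltbp3 lay below the filter level in every SHAM, VEHICLE and CTLD library. The filter thus favoured their rises and the counts of the list that rose. Ltbp4, a protein of the same family, was lower in both (-1.58 ± 0.32 and -0.91 ± 0.32). Lrrc32, which holds latent TGF-beta on cell surfaces, was the one gene of this list called in CsA7 (0.95 ± 0.26, limma adjusted p = 0.0266).

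Among 6 receptor and SMAD genes 1 rose in BDL7, 4 rose and 1 fell in BDL28, 3 rose in DDC7 and 4 in DDC28. Of all genes 20.2%, 24.1%, 24.7% and 27.9% were called higher in these comparisons. Tgfbr2, the receptor that binds the ligand first, rose by 0.98 ± 0.17, 1.33 ± 0.17, 1.82 ± 0.17 and 2.12 ± 0.17 in BDL7, BDL28, DDC7 and DDC28. Smad2, a SMAD phosphorylated by the receptors, was called in CsA7 (0.53 ± 0.15, limma adjusted p = 0.0317). Of 7 inhibitor genes 3 rose in BDL7, 5 in BDL28, 1 in DDC7 and 4 in DDC28, and none fell in these. The 1 receptor gene in BDL7 and the 1 inhibitor in DDC7 did not exceed the shares of all genes. Smad7, the inhibitory SMAD, was called in BDL28 (0.92 ± 0.22) and DDC28 (1.26 ± 0.22), and Skil, a SMAD corepressor, was lower in CsA7 (-0.75 ± 0.20, limma adjusted p = 0.0243). Without BDL28 replicate 1, the numbers that rose in BDL28 were 4 latency genes, 3 receptor and SMAD genes and 4 inhibitors. In that fit 22.8% of all genes were called higher.

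Of the 9 TGF-beta target genes, all tested, 7 rose in BDL7 (median 3.11), 8 in BDL28 (median 1.59, and 6 at 0.918 without replicate 1), 8 in DDC7 (median 1.68) and 8 in DDC28 (median 2.02), and none fell. Of all genes 20.2%, 24.1%, 24.7% and 27.9% were called higher in these comparisons, and 22.8% in BDL28 without replicate 1. Col1a1, the alpha 1 chain of type I collagen, read 459, 182, 372 and 451 in BDL7 against 15.1 to 16.8 in SHAM, and 248, 147, 132 and 212 in DDC28 against 16.4 to 22.7 in CTLD. Its rises were 4.35 ± 0.40 and 3.10 ± 0.40. Col1a2, the partner chain, rose by 3.11 ± 0.40 and 1.67 ± 0.40. Timp1, an inhibitor of matrix proteases, read 33.4, 19.3, 23.9 and 22.9 in BDL7 with 0 in 3 of 4 SHAM libraries, and 36.6, 21.4, 9.04 and 14.7 in DDC28 with 0 in all 4 CTLD libraries. Timp1 lay below the filter level in every SHAM, VEHICLE and CTLD library, so the filter favoured its rises. Against a floor of 3 reads per CTLD library Timp1 was at least 3.31-fold higher in DDC7 and at least 4.04-fold higher in DDC28, and with it at that bound the list's medians were 1.68 and 2.01.

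**Figure D4:**
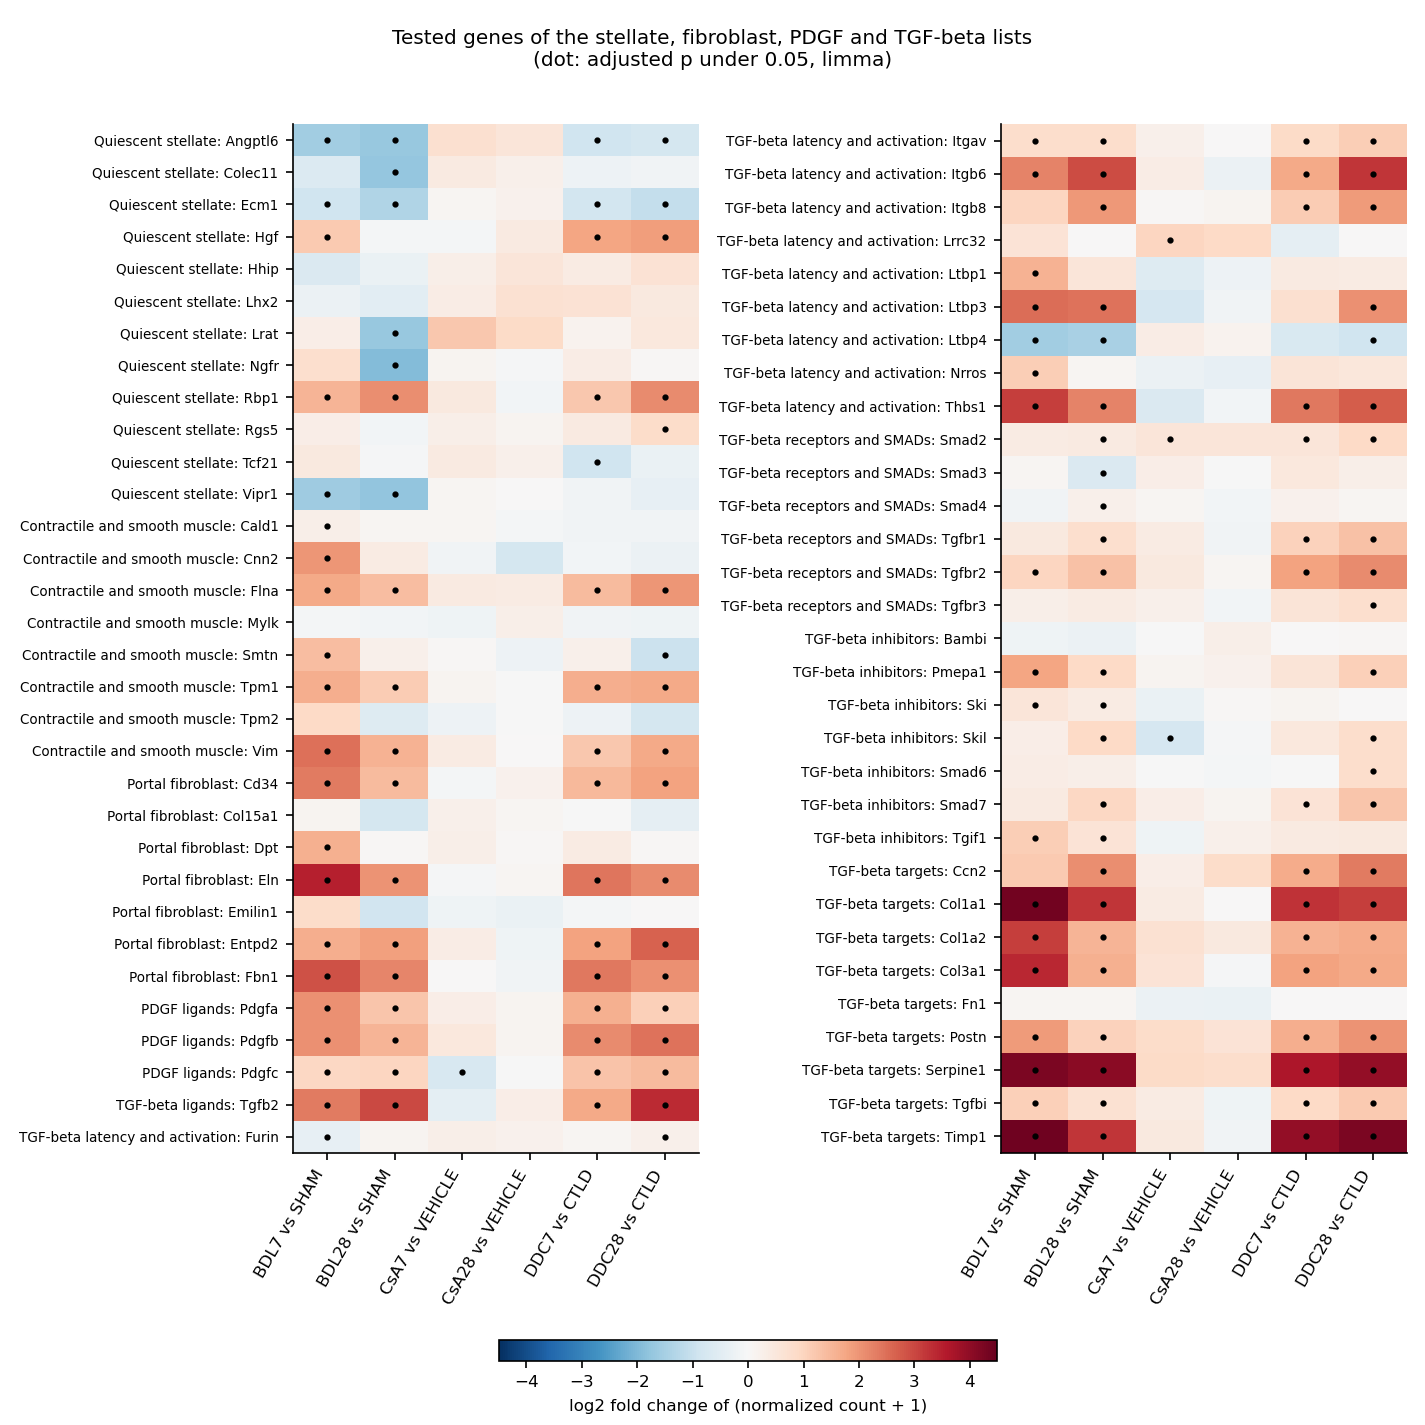
Log2 fold change of the tested genes of the stellate, contractile, portal fibroblast, PDGF and TGF-beta lists in the 6 treated groups against their own controls, with a dot where the limma adjusted p was under 0.05. Dots fill the PDGF ligand and TGF-beta target blocks in the 4 ligation and DDC columns, with Fn1 among the exceptions, and are few in the 2 cyclosporin columns.

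Between the 2 days the models were described by their own tests. From BDL7 to BDL28 4 of the 7 fell by limma (Acta2, Tagln, Lum and Reln), where 16.7% of all genes were called lower, and 2 by each of edgeR and DESeq2. Without BDL28 replicate 1, 6 fell, where 20.0% of all genes did: Pdgfrb and Dcn were added, at -1.52 ± 0.26 and -0.70 ± 0.15. From DDC7 to DDC28 0 were called where 5.70% of all genes were, with 2 at an unadjusted p under 0.05, 0 by edgeR and 1 by DESeq2; Dcn was higher in all 4 DDC28 libraries than in any DDC7 library, at 0.60 ± 0.21 (limma adjusted p = 0.0912).

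The test of the difference between those 2 day changes called 0 of the 7 with all libraries (1.48% of all genes), with 5 at an unadjusted p under 0.05 and 0 by edgeR and DESeq2. Without BDL28 replicate 1 it called 5, where 11.8% of all genes were called: Lum (-2.60 ± 0.39), Pdgfrb (-1.85 ± 0.35), Reln (-1.71 ± 0.28), Pdgfra (-1.59 ± 0.49) and Dcn (-1.29 ± 0.21), each a lower day change in ligation than in the diet. A single library thus decided these 5 calls.

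At day 7 the effects of ligation and the diet did not differ by test for any of the 7: 0 were called by limma where 8.46% of all genes were, with 2 at an unadjusted p under 0.05 (Acta2 and Tagln, at 1.69 ± 0.72 and 1.72 ± 0.68), 0 by edgeR and 1 by DESeq2. At day 28 Reln differed, at -1.81 ± 0.44 (limma adjusted p = 0.00861, and 0.0712 in a fit of those 4 groups alone), where 10.3% of all genes were called. Without BDL28 replicate 1, 4 differed, where 16.7% of all genes did: Reln (-2.36 ± 0.28), Lum (-1.71 ± 0.39), Pdgfrb (-1.37 ± 0.35) and Dcn (-1.18 ± 0.21).

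Against the cyclosporin effect, the BDL7 effect was larger for 3 of the 7, where 23.5% of all genes were called: Acta2 (3.45 ± 0.72), Lum (1.77 ± 0.58) and Pdgfrb (1.66 ± 0.50). The Lum call was lost by edgeR (adjusted p = 0.0616), with no filter (limma adjusted p = 0.0597) and without any 1 of 4 libraries, SHAM replicate 4, BDL7 replicate 1, VEHICLE replicate 3 or CsA7 replicate 1. At day 28 the ligation effect differed for Reln alone (-1.28 ± 0.44, limma adjusted p = 0.0253), where 29.9% of all genes were called, and for 0 by edgeR and by DESeq2; it was lost with 7 of 16 libraries left out in turn and was -1.83 ± 0.28 without BDL28 replicate 1. The DDC7 effect differed from the CsA7 effect for 0 of the 7 by limma, where 26.9% of all genes were called, with 2 at an unadjusted p under 0.05 and 0 by edgeR and DESeq2. The DDC28 effect was larger than the CsA28 effect for Pdgfra (1.44 ± 0.51, limma adjusted p = 0.0263) and Dcn (0.76 ± 0.30, limma adjusted p = 0.0454), where 35.6% of all genes were called. With the 16 libraries left out in turn the Pdgfra call was lost in 5 cases and the Dcn call in 13, and the Dcn call was also lost with no filter (limma adjusted p = 0.110) and with a replicate block (limma adjusted p = 0.0501).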

How the data were processed

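QuantSeq 3' libraries with molecular identifiers from 36 mouse livers were processed on GRCm39 with RSEM 1.3.1, STAR 2.7.9a, DESeq2, Trim Galore and UMI-tools 1.1.1, per the submitters' processing notes, which give no order or role. The deposited signal holds, for each gene and library, a read count scaled by a factor of that library. Every value came out as a whole number of reads (100% within 0.001), so edgeR 4.0.16 and DESeq2 1.42.0 were also run on the recovered reads; edgeR called 4901 genes in BDL7 against SHAM and limma 4876. Depth was 2081093 to 3770267 reads per library, and each value carries the counting error of its reads. Of 29546 gene IDs 29121 carried a symbol and 28 symbols were duplicated.

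The main test was limma 3.58.1 (R 4.3.3; trend, robust, two-sided) on log2(normalized count + 1) in 1 fit of 9 groups, over 12596 genes at 10 or more in at least 4 libraries, with Benjamini-Hochberg adjustment and a threshold of 0.05. Fits were tested on simulated data. The genes and lists were chosen with earlier results of these data known. The 7 tested genes are named in every comparison or counted in it. Des, Thy1 and Tgfb1 are given for some comparisons only. Of each list, the 3 tested genes with the lowest adjusted p in BDL7 and the 2 in DDC7 (or BDL28), and those called under cyclosporin, could be named. Genes called outside that rule are said to be so. Replicates are separate mice, per the series' design text. Alternatives were other scalings, filters, pseudocounts and tools, a replicate block, the compared groups alone, and leaving out each library; list counts without BDL28 replicate 1, and leaving out libraries in the fit with no filter, were added after seeing the data. Promoters are from RefSeq, GRCm38.p6, matched by symbol for 5 of the 10 genes after windows on chromosome 18 were left out.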

Additional observations from a re-analysis of the deposited data

Results flagged for a closer look

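In 5 of 90 sets of 4 libraries (10 genes by 9 groups) 1 library stood far from the other 3. Independent normal values would pass the cutoff used in about 1 of 20 sets. The sets here share libraries and some hold few reads, so that rate does not measure chance for them. Of these 5, 4 were BDL28 replicate 1: Pdgfrb at 77.72 with the nearest library at 18.38, Lum at 150.5 with the nearest at 26.79, Reln at 106.3 with the nearest at 26.64, and Des at 1.968 with the other 3 at 0. The fifth was Thy1 in DDC28 replicate 1, at 5.735 with the nearest at 1.837, all of them few reads.

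The effects of 2 models differed by limma's test of the difference for 7 gene and day pairs. Reln differed between ligation and the DDC diet at day 28 (-1.81, adjusted p = 0.00861) and between ligation and cyclosporin at day 28 (-1.28, adjusted p = 0.0253). At day 7 Acta2 (3.45, adjusted p = 5.80e-04), Lum (1.77, adjusted p = 0.0256) and Pdgfrb (1.66, adjusted p = 0.0145) had larger effects in ligation than under cyclosporin, by limma; the Lum call was lost by edgeR (adjusted p = 0.0616) and with no filter (0.0597). At day 28 Pdgfra (1.44, adjusted p = 0.0263) and Dcn (0.756, adjusted p = 0.0454) had larger effects in the DDC diet than under cyclosporin, by limma; the Dcn call was lost with 13 of 16 libraries left out in turn.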

How the results depend on the processing

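Over the alternative scalings, filters, pseudocounts, tools and left-out libraries, 2387 values for the 7 tested genes and their counts were recomputed: 2244 kept their side of the threshold, 76 no longer passed, 67 newly passed, and 0 called values changed sign. Of the 2244, 2198 also kept their sign and 46 changed it while passing in neither fit, among them Dcn and Pdgfrb in BDL28 against SHAM. The number of the 7 genes called in BDL28 against SHAM, 3 as reported, was 5 with total-count scaling and 1 in a fit of the compared groups alone. In DDC7 against CTLD, 2 as reported, it was 6 with total-count scaling and 5 with the groups alone. From BDL7 to BDL28, 4 as reported, it was 2 by edgeR, 2 by DESeq2 and 1 with the groups alone, and from DDC7 to DDC28, 0 as reported, it was 1 by DESeq2 and 1 with the groups alone. For differences between effects, BDL7 minus DDC7 (0) gave 1 by DESeq2 and 1 with the groups alone, BDL28 minus DDC28 (1) gave 0 with the groups alone, BDL28 minus CsA28 (1) gave 0 with no filter, total-count scaling, edgeR, DESeq2 and the groups alone, DDC7 minus CsA7 (0) gave 2 with total-count scaling and 1 with the groups alone, and DDC28 minus CsA28 (2) gave 1 with no filter and 4 with each of total-count scaling and the groups alone.

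With 1 library left out at a time, the counts ranged from 2 to 5 in BDL28 against SHAM, 1 to 6 from BDL7 to BDL28, 0 to 1 from DDC7 to DDC28, 0 to 1 for BDL7 minus DDC7, 1 to 4 for BDL28 minus DDC28, 0 to 1 for BDL28 minus CsA28, 0 to 1 for DDC7 minus CsA7, 0 to 3 for DDC28 minus CsA28, 0 to 5 for the difference in day change and 0 to 1 among the controls. The highest counts for BDL28 minus DDC28 and for the day change came without BDL28 replicate 1, and the lowest for BDL7 to BDL28 without BDL28 replicate 2. The cause of these changes was not tested, beyond the fewer libraries.

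Replicate numbers did not pair the samples: in 0 of 4 pairs did the deviations of same-numbered libraries correlate above 0.1 in BDL7 against SHAM, and in at most 2 of 4 in any comparison. A replicate block kept every count of called genes (5 in BDL7, 3 in BDL28, 2 in DDC7 and 5 in DDC28) and moved 2 of 112 values across the threshold, Dcn (0.756, limma adjusted p = 0.0501) and Lum (1.44, limma adjusted p = 0.0389) in DDC28 minus CsA28.

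Over all genes, counts of called genes moved by more than 1.5 times as follows. CsA7, 507 as reported, was 839 with total-count scaling and 259 with the groups alone. CsA28, 3 as reported, was 0 with a pseudocount of 5, quantile normalization or the groups alone, 10 with total-count scaling and 71 by DESeq2. With the groups alone, BDL7 to BDL28 went from 3871 to 2443, CsA7 to CsA28 from 308 to 161, DDC7 to DDC28 from 718 to 1114 and BDL28 minus DDC28 from 1295 to 645. With no filter BDL7 minus DDC7 went from 1065 to 666 and BDL28 minus DDC28 to 731. The difference in day change, 186 as reported, was 109 with no filter, 451 with quantile normalization, 303 by edgeR, 496 by DESeq2 and 51 with the groups alone. Total-count scaling moved the median of all genes by 0.131 in CsA7, with 83.3% of calls higher against 46.7% as reported. Depth limits Des, Thy1 and Tgfb1, with at most 17 reads per library.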

Other observations

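Across the 9 group means of log2(normalized count + 1), the genes outside the list whose courses were most like each member's were found among genes that reached a group mean of 50; these are descriptions over 9 points that share libraries. Acta2 was most like Dock10 (Pearson r = 0.977), Dtymk (0.974) and the cytoplasmic actin Actg1 (0.967). Tagln was most like Rrm1 (0.977), Pdgfrb like Arrb2 (0.970), Pdgfra like Cybb (0.987) and Lum like Spi1 (0.984). Dcn was most like Abcc9 (0.952) and the pericyte gene Rgs5 (0.911). Col14a1 (0.881) and the endothelial gene Plvap (0.872) were among those most like Reln. Tgfb1 was most like Vim (0.976).

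Among the members, Lum followed Pdgfra (r = 0.951), Pdgfrb (0.942) and Acta2 (0.921) across the same 9 means. Reln stood at 0.106 with Acta2 and 0.658 with Dcn.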
